A study of Mus musculus with 4 samples.

Results

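The 36 genes described here encode proteins of the lysosome and of the autophagy pathway that delivers cargo to it. They were taken from a list by the gene symbol of the array's platform annotation, and all 36 were measured, among 18193 genes with a probe set of a single symbol. This list, like the other gene lists below, was chosen with earlier results of these data known. The counts below are therefore not independent of these arrays. All 36 also passed a filter on dim genes (a mean intensity of at least 24.9, which is where the lowest 40% of probe sets end), which kept 13522 genes. The samples were 4 tumours of iNRAS-475, a mouse melanoma cell line carrying an NRAS gene that doxycycline switches on, grown in the dermis of nude mice, which lack a thymus and so most T cells. All mice drank 2 mg/ml doxycycline while the tumours grew to 200 to 500 mm3 over 6 weeks. The tumours taken 24, 48 and 72 h after the drug was withdrawn were set against the control tumour, which stayed on it, with 1 Affymetrix array for each condition. The tumours come from a single cell line, and the labels give neither the promoter of the transgene nor the age of the mice.

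Lysosomes are acidic organelles in which hydrolases break down proteins, glycans and lipids, behind a membrane whose proton pump keeps the inside acidic. Autophagy wraps cytoplasm in a membrane that fuses with the lysosome. Many of these genes are transcribed by TFEB and TFE3, which with MITF, the melanocyte lineage factor, form a family that binds E-box sequences in promoters. Phosphorylation of TFEB by mTORC1 or by ERK, the kinase downstream of RAS, holds it in the cytoplasm in other cells. The study withdrew doxycycline to follow the genetic extinction of NRAS over time, and these genes give the RNA levels of the degradative machinery at 24, 48 and 72 h.

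The promoters of these genes are shown because the E-box is the letter pattern that TFEB, TFE3 and MITF bind. Sequences are from RefSeq (build GRCm38.p6), on the strand of the gene, from 250 bases before to 50 bases after its start, and 31 of the 36 genes had one. The heptamer TCACGTG, looked for on both strands, was in a promoter of 9 of these 31 genes, or 29.0%, and in 4.29% of all 27025 genes with a sequence in the table. The 6 letters CACGTG inside it were found for 10 of 31 genes (32.3%, against 8.09% of all genes) and the longer GTCACGTG for 9 (29.0%, against 2.55%). Among 91 other genes of the lysosome, of autophagy and of their regulation, 22.0% held the heptamer. The 6 letters were found for 25.3% of these 91 genes and the longer pattern for 13.2%. The heptamer and its 6 letters are thus not particular to the 36. The 3 patterns overlap, since each longer one holds the shorter ones. Among the 37 promoter windows of the members, 24.3% held the heptamer, against 3.77% of all 32851 windows. These matches are letters and not measured binding. Capitals mark the heptamer, on either strand, in 4 promoters that hold it, and the promoter of Scarb2, which has no match in this window, is given beside them.
Lamp1, chr8:13158911-13159210, plus strand: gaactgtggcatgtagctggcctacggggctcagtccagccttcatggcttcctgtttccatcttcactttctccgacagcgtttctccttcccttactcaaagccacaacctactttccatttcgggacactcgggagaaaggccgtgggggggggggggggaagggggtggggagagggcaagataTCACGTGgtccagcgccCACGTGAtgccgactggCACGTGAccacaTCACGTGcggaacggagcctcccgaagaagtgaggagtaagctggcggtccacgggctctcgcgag
Ctsa, chr2:164833523-164833822, plus strand: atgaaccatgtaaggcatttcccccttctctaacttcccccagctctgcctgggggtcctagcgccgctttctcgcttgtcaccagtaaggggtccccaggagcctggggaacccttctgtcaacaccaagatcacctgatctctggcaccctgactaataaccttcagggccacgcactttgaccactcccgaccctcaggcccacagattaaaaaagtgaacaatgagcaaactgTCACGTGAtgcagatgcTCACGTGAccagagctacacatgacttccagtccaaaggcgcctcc
Mcoln1, chr8:3500269-3500568, plus strand: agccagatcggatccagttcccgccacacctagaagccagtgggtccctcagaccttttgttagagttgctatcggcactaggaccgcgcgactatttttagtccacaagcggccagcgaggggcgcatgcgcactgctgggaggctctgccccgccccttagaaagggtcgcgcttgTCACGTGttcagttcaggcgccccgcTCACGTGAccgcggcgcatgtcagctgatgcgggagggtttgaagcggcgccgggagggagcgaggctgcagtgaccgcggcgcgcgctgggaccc
Gla, chrX:134600956-134601255, minus strand: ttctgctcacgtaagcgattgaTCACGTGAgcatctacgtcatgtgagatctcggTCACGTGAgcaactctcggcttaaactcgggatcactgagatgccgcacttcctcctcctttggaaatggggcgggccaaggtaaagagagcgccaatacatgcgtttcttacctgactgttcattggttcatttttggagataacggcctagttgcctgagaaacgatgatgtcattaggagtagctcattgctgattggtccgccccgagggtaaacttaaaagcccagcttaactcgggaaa
Scarb2, chr5:92505608-92505907, minus strand: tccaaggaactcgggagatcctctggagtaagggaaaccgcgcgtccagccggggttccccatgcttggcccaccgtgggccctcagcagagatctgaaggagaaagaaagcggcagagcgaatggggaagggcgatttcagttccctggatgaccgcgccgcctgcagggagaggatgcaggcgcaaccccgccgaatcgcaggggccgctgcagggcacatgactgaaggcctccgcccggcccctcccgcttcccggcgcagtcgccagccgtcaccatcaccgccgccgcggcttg
Lamp1 had 4 copies, the first 62 bases before the start. In Ctsa and Gla a copy on each strand overlapped to give 8 capital letters, at 2 places in each promoter. Beside Lamp1, Ctsa, Mcoln1 and Gla, the heptamer was in promoters of Atp6v0d1, Cln3, Ctsd, Glb1 and Naglu.

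Every value below comes from the brightest probe set of a gene, and each condition had 1 tumour, so the differences carry neither an error nor a test. Tumour, mouse and condition cannot be told apart. Differences are off minus on in log2(intensity + 32), a scale that understates those of dim genes, and "2-fold" stands for a difference of at least 1 in either direction. The median intensity of an array was between 33.3 and 34.0. The array's Nras probe set read 163 on doxycycline and 256, 163 and 163 at 24, 48 and 72 h, with differences of 0.57, 0.00 and 0.00, and the labels do not say whether it detects the doxycycline-driven gene, so it does not check them. The melanocyte and melanoma factor Sox10 was bright on all arrays (intensities of 3771, 3613, 4681 and 3844 in time order), whereas the pigment genes Tyr, Tyrp1 and Mlana were below the filter. The 7 melanocyte and melanoma markers kept had medians of -0.13, 0.36 and 0.18, and at 72 h they ranged from -0.24 to 1.14. The 72 h tumour piece carried more signal of muscle, matrix and fat genes than the control. Of the skeletal muscle markers kept, 7 of 7 were 2-fold higher there, as were 6 of 7 fibroblast and matrix markers and 3 of 4 adipocyte markers (2.29% of all genes). Their medians were 3.20, 1.77 and 2.15, and at 48 h these medians were -0.05, 0.98 and 0.26. Myh4 (11.5, 9.88, 11.5 and 470 in time order) and Tnnt3 (18.6, 18.6, 14.4 and 91.0) passed the filter only through the 72 h array. The muscle count thus leans on the filter, and Myh1, which was below it, was at -0.08 at 72 h. Endothelial markers had a median of 0.58 at 72 h, and those of neutrophil, lymphoid, keratinocyte and mast cell markers lay between -0.01 and 0.17. Single lymphoid markers ranged at 72 h from -0.21 to 1.36 (Ptprc), and mast cell markers from -0.04 to 0.55 (Cpa3). Neutrophil and keratinocyte markers lay between -0.03 and 0.31. In such a piece more cells of a type and more RNA per cell cannot be told apart, and the part these cells play in the values below was not tested.

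Most lysosome genes were higher than in the control tumour by 72 h off doxycycline, with the highest group medians for the soluble proteins that are not enzymes (0.93) and the membrane proteins (0.68), while the medians of the proton pump and the transcription factors were 0.02 and -0.05. Over the 36 genes the median difference was 0.08, 0.18 and 0.48 at 24, 48 and 72 h, where the median over all genes kept was 0.00 at each time. With the second brightest probe set, which 23 of the genes have, the median at 72 h was 0.29, and from 24 to 72 h it was 0.24. The median at 24 h lay between 0.0019 and 0.0808 over the 10 other settings tried. The number above the control was 21, 26 and 30, against 49.0%, 45.3% and 46.8% of all genes, and the number below it was 12, 8 and 6, against 43.0%, 45.5% and 43.7%. At 72 h 18 of the 36 were higher by at least 0.5 (8.32% of all genes) and 1, Sqstm1, was lower by as much (5.52%). At 48 h 5 were higher by at least 0.5 (4.51%) and 0 were lower by as much (4.75%). At 24 h both counts were 0, against 2.17% and 0.932% of all genes. Scarb2, Grn and Lamp2 were 2-fold higher at 72 h, which 2.29% of all genes were (5 members after quantile normalization), Scarb2 was so at 48 h (0.754%), and the count of 2-fold lower genes was 0 at each time (0.0666%, 1.04% and 1.63%). At 24 h the count of 2-fold higher members was 0, against 0.266% of all genes.

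The higher levels were mostly those of the last array. The 72 h array gave the highest of the 4 intensities for 27 of the 36 genes, against 26.9% of all genes. The control array did so for 3, the 24 h array for 5 and the 48 h array for 1, against 23.9%, 22.1% and 17.1% of all genes. For 14 of them each intensity was above the one before, in the order on doxycycline, 24, 48 and 72 h, which held for 7.29% of all genes. The median from 24 h to 72 h, a comparison that leaves out the control array, was 0.40, with 30 of 36 genes above the 24 h array (46.5% of all genes) and 6 below it (40.8%). Between these arrays 15 members were higher by at least 0.5 (6.40%) and 0 were lower by as much (6.71%). Scarb2, Grn and Hexa were 2-fold higher, by 1.83, 1.14 and 1.05 (1.97% of all genes), and 0 were 2-fold lower (1.85%). From 24 to 48 h 25 genes were higher and 10 lower (44.8% and 44.3% of all genes), and from 48 to 72 h 29 were higher and 7 lower (47.1% and 39.4%), with medians of 0.14 and 0.23.

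**Figure D1:**
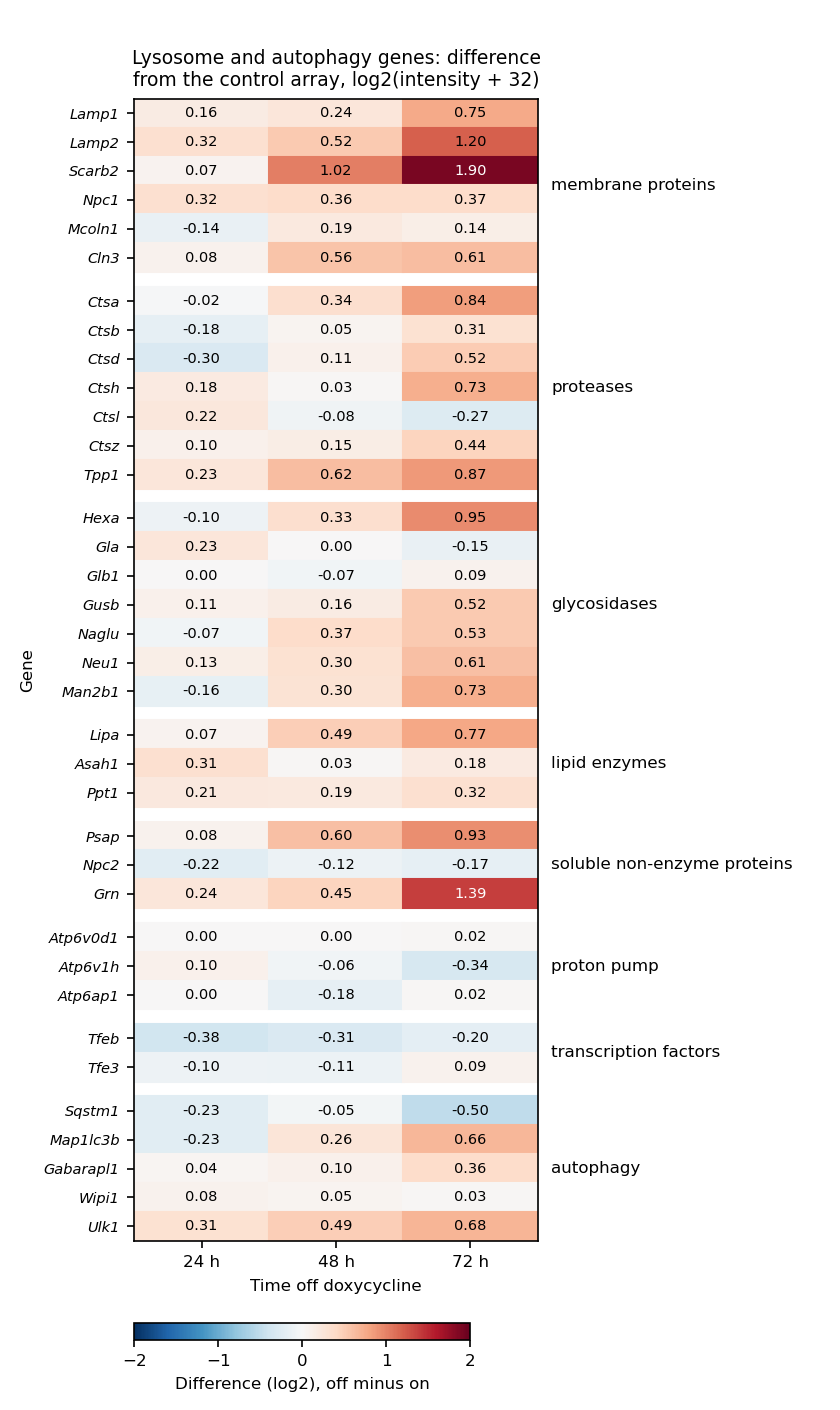
Difference from the control array on the scale log2(intensity + 32) for the 36 genes (rows, by role) at 24, 48 and 72 h off doxycycline (columns), 1 array each, with each value printed in its cell. Red cells are above the control and blue cells below it; the deepest red is Scarb2 at 72 h, 1.90, and the row of Atp6v0d1 is nearly white.

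The lysosomal membrane proteins were above the control in 6 of 6 cases at 48 and 72 h and in 5 of 6 at 24 h (45.3%, 46.8% and 49.0% of all genes at 48, 72 and 24 h), with medians of 0.12, 0.44 and 0.68. Scarb2, the membrane protein that carries the enzyme glucocerebrosidase to the lysosome, had an intensity of 561 on doxycycline and 592, 1172 and 2186 at 24, 48 and 72 h. Its 24 h and control values lay close together, and the 72 h value was 3.90 times the control. Lamp1, an abundant glycoprotein that coats the inner face of the membrane, read 2993 on doxycycline and 3345, 3535 and 5071 at 24, 48 and 72 h. Lamp2, its relative, which also serves as a receptor for direct import of proteins, read 559 on doxycycline and 706, 813 and 1321 at 24, 48 and 72 h. Both stood highest at 72 h, with differences from the control of 0.75 and 1.20. The intensity of Cln3, the membrane protein lost in juvenile Batten disease, was 54.6 on doxycycline and 59.8, 95.9 and 100.4 at 24, 48 and 72 h, so its higher level was reached at 48 h. Npc1, which exports cholesterol from the lysosome, read 93.8 on doxycycline and 125, 129.6 and 131 at 24, 48 and 72 h with its 3 off values close together. Mcoln1, a cation channel that releases calcium, read 146 on doxycycline and 129.5, 172 and 164 at 24, 48 and 72 h, with 24 h the lowest and 48 h the highest array. Another Mcoln1 probe set, nearly as bright, had 48 h as its lowest array instead, with 118 on doxycycline and 124, 95.9 and 152 at 24, 48 and 72 h, and differed by -0.23 from the control at 48 h.

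Among the lysosomal proteases 6 of 7 were above the control at 72 h, against 46.8% of all genes, and 4 were higher by at least 0.5, against 8.32%. Tpp1, which removes tripeptides from the ends of proteins, had an intensity of 696 on doxycycline and 824, 1088 and 1298 at 24, 48 and 72 h, and Ctsa, a carboxypeptidase that also stabilises the sialidase, one of 654 on doxycycline and 643, 838 and 1192 at 24, 48 and 72 h. Both were above the control at 48 h, by 0.62 and 0.34, and further at 72 h, by 0.87 and 0.84. Ctsd, the main aspartic protease, read 3476 on doxycycline and 2812, 3744 and 4981 at 24, 48 and 72 h, and Ctsh, an aminopeptidase, 448 on doxycycline and 513, 457 and 762 at 24, 48 and 72 h. Ctsd was below the control at 24 h (-0.30) and above it only by 0.11 at 48 h, and Ctsh was near it at 48 h (0.03). The carboxypeptidase Ctsz read 689 on doxycycline and 743, 770.2 and 948 at 24, 48 and 72 h, and Ctsb, a cysteine protease, 5826 on doxycycline and 5132, 6023 and 7206 at 24, 48 and 72 h. The next brightest Ctsb probe set was highest at 48 h instead, with 3720 on doxycycline and 3252, 4641 and 3969 at 24, 48 and 72 h. Ctsl, another cysteine protease, was highest at 24 h and lowest at 72 h, with intensities of 2779 on doxycycline and 3249.5, 2620.1 and 2294 at 24, 48 and 72 h, and was the 1 protease below the control at 72 h, at -0.27.

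The glycosidases, which take sugars off glycoproteins and glycolipids, were above the control in 6 of 7 cases at 72 h (46.8% of all genes), and 5 were higher by at least 0.5 (8.32%). The intensity of Hexa, the alpha subunit of the hexosaminidase that degrades gangliosides, was 1057 on doxycycline and 985, 1341 and 2069 at 24, 48 and 72 h. Man2b1, the alpha-mannosidase, read 506 on doxycycline and 449.8, 628 and 857 at 24, 48 and 72 h, and the sialidase Neu1 69.8 on doxycycline and 79.7, 93.5 and 123 at 24, 48 and 72 h. Hexa and Man2b1 were slightly below the control at 24 h (-0.10 and -0.16) and stood at 0.95 and 0.73 at 72 h. Naglu, which degrades heparan sulphate, read 127 on doxycycline and 120.1, 173 and 198 at 24, 48 and 72 h, and Gusb, the beta-glucuronidase, 204 on doxycycline and 222, 231 and 306 at 24, 48 and 72 h. Their differences at 72 h were close, at 0.53 and 0.52. Glb1, the beta-galactosidase, had the same value on the control and 24 h arrays and read 280.4 on doxycycline and 280.4, 265 and 301 at 24, 48 and 72 h. Gla, the alpha-galactosidase, was dim, with 32.01 on doxycycline and 43.3, 32.01 and 25.8 at 24, 48 and 72 h, and it was highest at 24 h and lowest at 72 h.

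All 3 lipid enzymes were above the control at each time (49.0%, 45.3% and 46.8% of all genes at 24, 48 and 72 h), in different time courses. Lipa, the acid lipase that frees cholesterol from its esters, read 278 on doxycycline and 294, 404 and 498 at 24, 48 and 72 h, and its difference was 0.77 at 72 h. Asah1, the acid ceramidase, was highest at 24 h, with intensities of 425 on doxycycline and 536, 435 and 486 at 24, 48 and 72 h. Ppt1, which takes fatty acids off proteins, read 249.7 on doxycycline and 295, 289.6 and 319.8 at 24, 48 and 72 h and differed by 0.21, 0.19 and 0.32 at the 3 times.

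Of the 3 soluble proteins that are not enzymes, Psap and Grn were among the most different members and Npc2 was slightly below the control. Grn encodes progranulin, a secreted and lysosomal protein that is cut into granulins, and its intensity was 2243 on doxycycline and 2664, 3081 and 5924 at 24, 48 and 72 h. Psap, the precursor of the saposins that help enzymes reach lipids, read 2753 on doxycycline and 2912, 4192 and 5284 at 24, 48 and 72 h. Psap had most of its difference by 48 h (0.60, and 0.93 at 72 h), whereas Grn differed by 0.45 at 48 h and 1.39 at 72 h. The other Psap probe set was highest at 48 h instead, with 2054 on doxycycline and 2076, 3365 and 3217 at 24, 48 and 72 h. Npc2, which hands cholesterol to Npc1, read 3124 on doxycycline and 2679, 2882 and 2767 at 24, 48 and 72 h, lower than the control at each time, with differences of -0.22, -0.12 and -0.17.

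The 3 proton pump genes lay near the control, with medians of 0.00, -0.06 and 0.02. Atp6v0d1, a subunit of the membrane part of the pump, read 341 on doxycycline and 341, 341 and 346 at 24, 48 and 72 h, with 3 exactly equal values. The accessory subunit Atp6ap1 read 566 on doxycycline and 566, 495 and 574 at 24, 48 and 72 h, and Atp6v1h, a subunit of the part that splits ATP, 174 on doxycycline and 189, 165 and 131 at 24, 48 and 72 h, the last of these -0.34 from the control. Equal values between arrays, whose origin is unknown, were found for 4 of the 36 members (Atp6v0d1, Atp6ap1, Glb1 and Gla) and for 36.8% of all genes.

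Of the transcription factors, Tfeb had the 24 h value farthest from the control among the 36 genes, on the low side, and Tfe3 lay closer to it. Tfeb read 349 on doxycycline and 261, 276 and 301 at 24, 48 and 72 h, below the control on each off array, and Tfe3 303 on doxycycline and 281, 278 and 325 at 24, 48 and 72 h. The differences at 24, 48 and 72 h were -0.38, -0.31 and -0.20 for Tfeb and -0.10, -0.11 and 0.09 for Tfe3. These are RNA levels, and the place of the proteins in the cell was not measured.

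Of the 5 autophagy genes, 2 were higher by at least 0.5 at 72 h (8.32% of all genes), 1 was lower by as much (5.52%) and the others differed less. Ulk1, the kinase that starts autophagy, had an intensity of 185 on doxycycline and 236, 272 and 316 at 24, 48 and 72 h. Map1lc3b, a small protein that is attached to the lipid of the forming membrane, read 633 on doxycycline and 533, 765 and 1020.5 at 24, 48 and 72 h, lowest at 24 h, and its relative Gabarapl1 984 on doxycycline and 1011, 1054 and 1274 at 24, 48 and 72 h. The differences at 72 h were 0.68, 0.66 and 0.36 for these 3 genes. Sqstm1, a receptor that links cargo to that membrane and is degraded with it, read 2670.2 on doxycycline and 2275, 2578 and 1877 at 24, 48 and 72 h, the lowest of the 36 genes at 72 h by difference from the control (-0.50). Wipi1, which binds a phosphoinositide on the forming membrane, hardly differed, with 563 on doxycycline and 597, 583 and 574 at 24, 48 and 72 h.

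**Figure D2:**
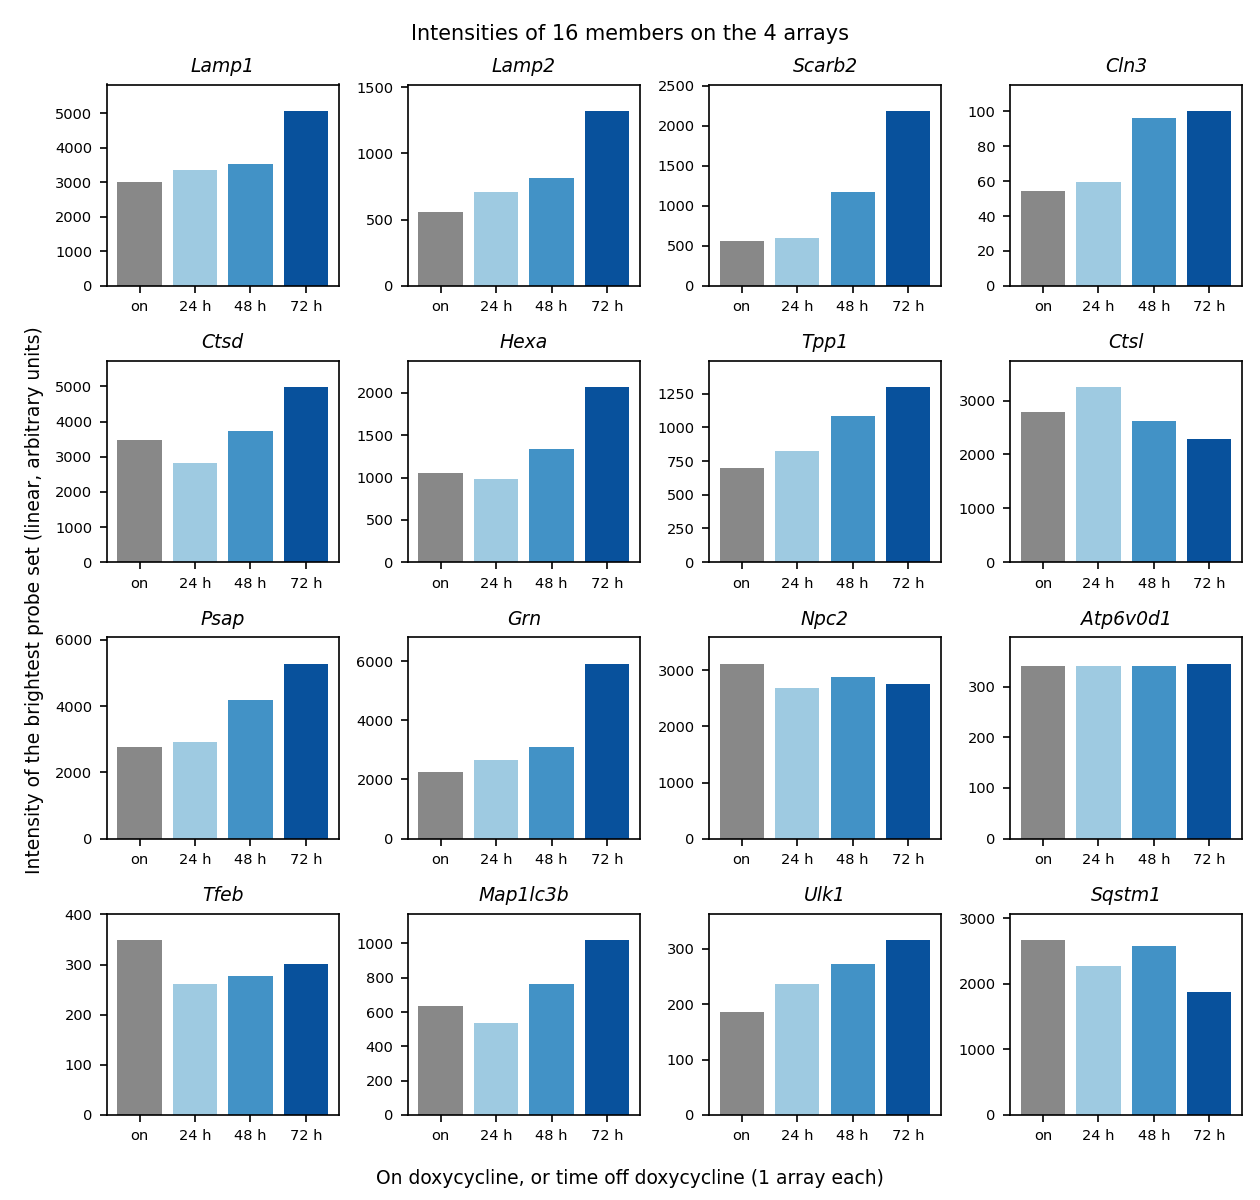
Intensities of 16 of the 36 genes (brightest probe set, linear scale from 0, 1 bar per array) on doxycycline and at 24, 48 and 72 h off it. Scarb2, Grn, Hexa and Psap are highest at 72 h, Atp6v0d1 is level at 341 to 346, and Sqstm1, Ctsl, Npc2 and Tfeb are lower at 72 h than on doxycycline.

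The 17 lysosomal enzymes (the proteases, glycosidases and lipid enzymes) had medians of 0.10, 0.16 and 0.52 at 24, 48 and 72 h, and the 5 autophagy genes had 0.04, 0.10 and 0.36. The enzyme median was above that of the autophagy genes by 0.07, 0.06 and 0.16. At 72 h 15 of 17 enzymes and 4 of 5 autophagy genes were above the control (46.8% of all genes), and 10 of 17 and 2 of 5 were higher by at least 0.5 (8.32%). The spread within each group, from -0.27 to 0.95 for enzymes and from -0.50 to 0.68 for autophagy genes, was wider than the distance between the medians. With the second brightest probe set in place of the brightest, a choice made after seeing the data, the enzyme median at 72 h was 0.29, and the distance was -0.33 at 48 h and -0.04 at 72 h. Over the 10 other settings tried the distance ranged from -0.03 to 0.22 at 24 h, from -0.33 to 0.08 at 48 h and from -0.04 to 0.23 at 72 h, so its direction was not settled at any time. Without probe sets whose names end in _x_at or _s_at, which can share signal with other transcripts, it was 0.22 at 24 h and -0.07 at 48 h.

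Macrophages are rich in lysosomes, and their markers were higher off doxycycline as well, in another time course. Of the 18 macrophage markers kept, 16, 13 and 15 were above the control at 24, 48 and 72 h (49.0%, 45.3% and 46.8% of all genes), with medians of 0.46, 0.24 and 0.88. Their summed intensity was 7044 on doxycycline and 11823, 9663 and 17298 at 24, 48 and 72 h, and that of the 36 members was 37093 on doxycycline and 36726, 42313 and 53552 at 24, 48 and 72 h. At 24 h 9 of 18 markers were higher by at least 0.5, against 0 of 36 members and 2.17% of all genes. From 24 to 48 h 15 of the 18 markers were lower (44.3% of all genes), with a median of -0.29. Over the same step 25 of the 36 members were higher (44.8% of all genes). From 48 to 72 h both sets were mostly higher, 16 of 18 markers and 29 of 36 members, against 47.1% of all genes. Single markers ranged at 72 h from -0.14 for the Fc receptor Fcgr1 to 1.97 for the oxidase subunit Cybb. Of the defining markers, Csf1r, the receptor for a macrophage growth factor, read 708 on doxycycline and 1103, 837 and 2318 at 24, 48 and 72 h, and Adgre1, the surface antigen of mature macrophages, 187 on doxycycline and 225, 242 and 389 at 24, 48 and 72 h. Cd163 was below the filter, and Itgam and Marco were dim, with intensities up to 34.9 and 33.3. Cd68, a macrophage marker that is itself a lysosomal membrane protein, was picked out after its values had been seen: it read 166 on doxycycline and 172, 436 and 525 at 24, 48 and 72 h, flat at 24 h and higher at 48 h, like Scarb2. How far macrophages account for the members' values at 72 h was not tested.

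**Figure D3:**
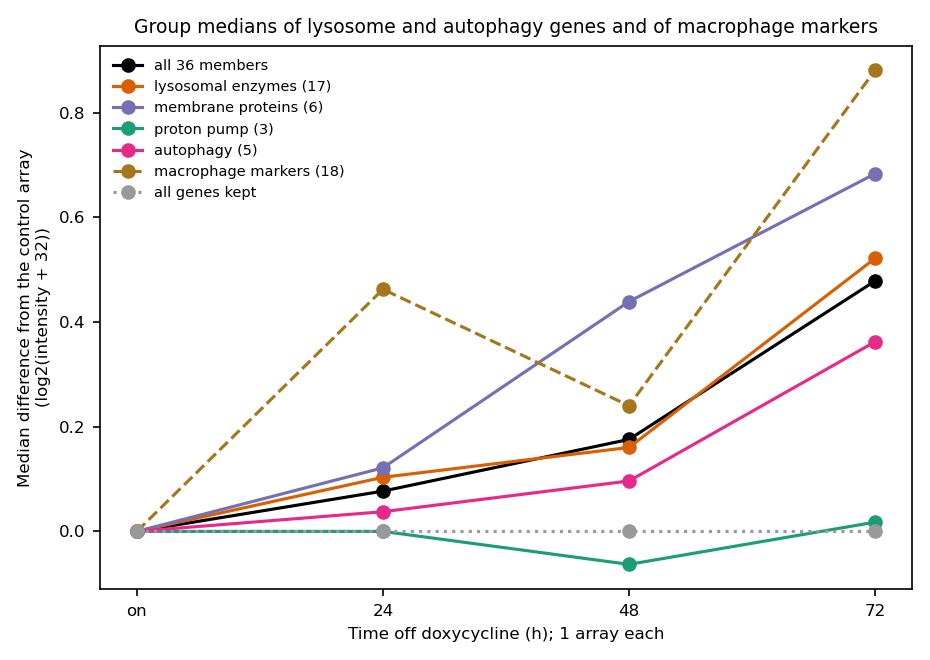
Median difference from the control array (log2(intensity + 32)) of groups of lysosome and autophagy genes, of 18 macrophage markers (dashed) and of all genes kept (dotted), on doxycycline and at 24, 48 and 72 h off it, 1 array each. The macrophage line is up at 24 h (0.46), lower at 48 h (0.24) and highest at 72 h (0.88), whereas the enzyme and membrane protein lines are higher at each time than at the one before and the proton pump line stays near 0.

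Lysosomal enzymes outside the 36 genes were also above the control at 72 h, in 24 of 24 cases (46.8% of all genes), with medians of 0.00, 0.19 and 0.43 and 11 higher by at least 0.5 (8.32%). This held for the brightest probe sets: with the second brightest, which not every gene has, the median at 72 h was -0.01. Arsb, an arylsulphatase, had an intensity of 191 on doxycycline and 187, 263 and 563 at 24, 48 and 72 h, although other Arsb probe sets were at 0.23 and 0.08 at 72 h. Ctso, a cysteine protease, read 71.2 on doxycycline and 97.9, 165 and 192 at 24, 48 and 72 h. Both were 2-fold higher at 72 h (2.29% of all genes). Ctsk and the acid phosphatase Acp5, both known from osteoclasts, were 2-fold higher at 48 h instead (0.754% of all genes). Ctsk read 413 on doxycycline and 333, 925 and 727 at 24, 48 and 72 h. Acp5 read 328 on doxycycline and 165, 703 and 355 at 24, 48 and 72 h. Ctss, a cathepsin of antigen-presenting cells, was 2-fold higher at 24 h (0.266% of all genes), where most other enzymes were near the control. It read 508 on doxycycline and 1103, 542 and 857 at 24, 48 and 72 h. Of 18 other membrane and sorting proteins 16 were above the control at 48 h and 16 at 72 h (45.3% and 46.8% of all genes), with medians of 0.00, 0.29 and 0.19, and 10 of them were highest on the 48 h array, against 17.1% of all genes. These 18 include Gm2a, which is a soluble protein and had the highest difference of the list at 48 h (0.58). With the second brightest probe set their median at 72 h was 0.09. At 72 h 1 of the 18 was 2-fold higher (2.29% of all genes), Laptm4b, a membrane protein of late endosomes and lysosomes. It read 893 on doxycycline and 1009, 1187 and 1844 at 24, 48 and 72 h.

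The other proton pump subunits had medians of 0.01, 0.07 and 0.22 over 12 genes, and with the mean over probe sets that at 72 h was 0.10. They ranged at 72 h from -0.71 for Atp6v1e1 and -0.18 for Atp6v1g1 to 0.46 for Atp6v0b and 0.47 for Tcirg1. The count of 2-fold different genes among them at 72 h was 0, where 2.29% of all genes were higher and 1.63% lower. Other Atp6v1e1 probe sets lay at 0.02 and -0.31. Further autophagy genes, 33 of them, had medians of 0.00, 0.06 and 0.09, with 20 above the control and 11 below it at 72 h (46.8% and 43.7% of all genes), and their median at 72 h lay between 0.00 and 0.09 over the 10 other settings. Rubcn, which encodes rubicon, an inhibitor of autophagosome maturation, was the 1 gene of the 33 that was 2-fold higher at 72 h (2.29% of all genes). It read 197 on doxycycline and 204, 416 and 495 at 24, 48 and 72 h. The regulators of mTORC1 and of the TFE factors, 18 genes, had medians of 0.07, 0.18 and 0.17. That at 72 h was 0.05 with no level filter, 0.06 with a filter at the 60th percentile and 0.09 with the second brightest probe set. Flcn encodes folliculin, which takes part in the control of TFEB and TFE3 by mTORC1. It read 151 on doxycycline and 155, 222 and 321 at 24, 48 and 72 h. Mitf read 50.3 on doxycycline and 56.5, 93.1 and 115 at 24, 48 and 72 h. The differences at 72 h were 0.95 for Flcn and 0.84 for Mitf. At the low end were Rheb, the GTPase that activates mTORC1, at -0.20, and Rptor, its scaffold, at -0.19. The folliculin partners Fnip1 and Fnip2, named after their values had been seen, were at 0.70 and 0.52.

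Members with and without the promoter heptamer had medians close to each other at 72 h. The 9 genes with a match had a median of 0.52, with a range from -0.15 (Gla) to 0.84 (Ctsa), and 5 of 9 were higher by at least 0.5 (8.32% of all genes). The 22 genes with a sequence and no match had a median of 0.56, with a range from -0.50 (Sqstm1) to 1.90 (Scarb2), and 12 of 22 were higher by at least 0.5 (8.32%). These 22 hold the 5 autophagy genes and the 2 transcription factors, whereas the 9 with a match hold none of them. The medians thus do not compare like sets of genes. The 3 genes that were 2-fold higher, Scarb2, Grn and Lamp2, had no match in the window. Among genes with a match, Gla and Atp6v0d1, with 2 overlapping pairs and 1, were at -0.15 and 0.02 at 72 h. Ctsa, also with 2 overlapping pairs, was at 0.84, and Lamp1, with 4 copies, at 0.75. Whether the heptamer bears on these values was not tested. That these letters are not in a window of 300 bases says nothing of sites elsewhere in the gene.

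**Figure D4:**
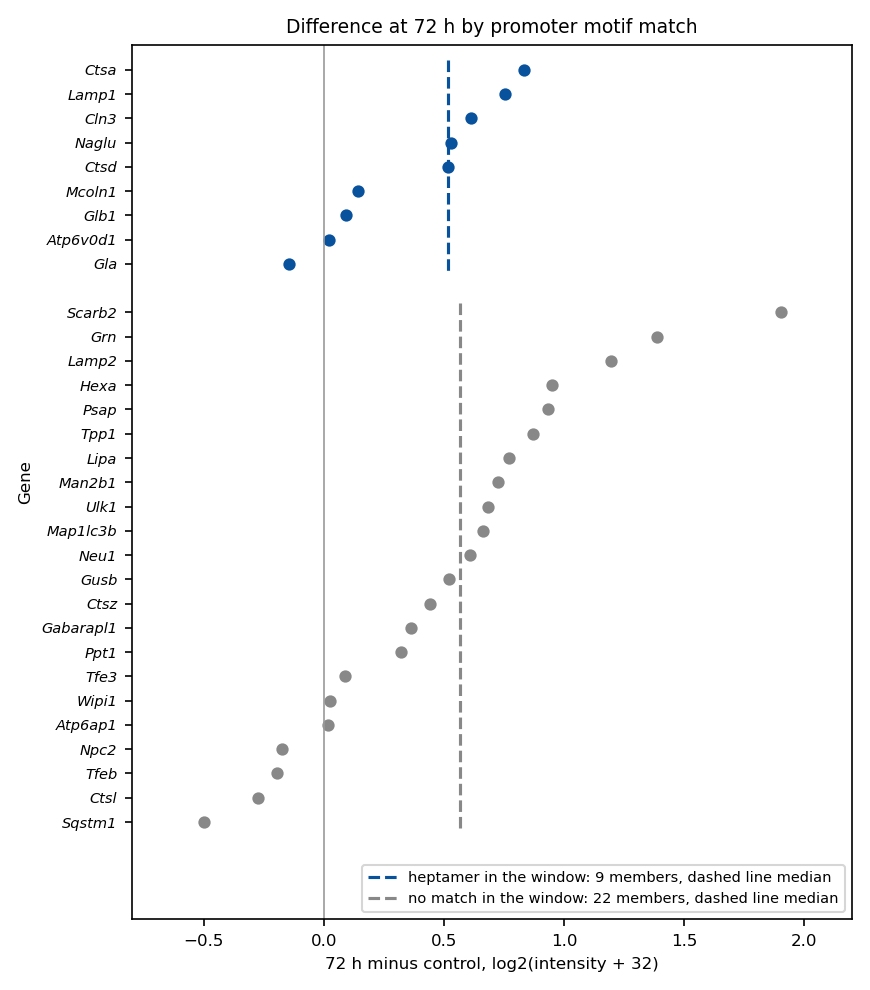
Difference at 72 h from the control array (log2(intensity + 32)) for the members with a RefSeq promoter sequence, 1 point per gene: above, the 9 genes whose window holds the heptamer, and below, the 22 without a match. The dashed lines, the medians, are close, at 0.52 and 0.56. The lower set also holds the autophagy genes and the transcription factors, and the upper set none of these.

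The other probe sets of a gene are a check on the brightest. The 36 genes had 84 probe sets, and 11 genes had only 1. Of 39 further probe sets above the level filter, in 23 genes, 30 lay on the same side of the control as the brightest at 72 h, 5 lay on the other side and 4 equalled the control, and 24 were within 0.3 of the brightest. The other Scarb2 probe set was at 1.13, those of Grn at 1.21 and 0.92, and those of Lamp2 between 0.40 and 1.08. For Map1lc3b they were at 0.63 and 0.53, and for Lipa at 0.82 and 1.31. The other Psap probe set was at 0.64, against 0.93 for the brightest, and that of Ulk1 at 0.36, against 0.68. Both of these other probe sets were highest at 48 h. Values that rest on the brightest alone include Cln3, whose other probe set was at -0.05, Neu1, at 0.00, Ctsa, at 0.00, and Man2b1, at 0.07. For Ctsb the other probe sets lay between 0.00 and 0.12, against 0.31 for the brightest. The 5 other Wipi1 probe sets lay between -0.39 and 0.14.

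**Figure D5:**
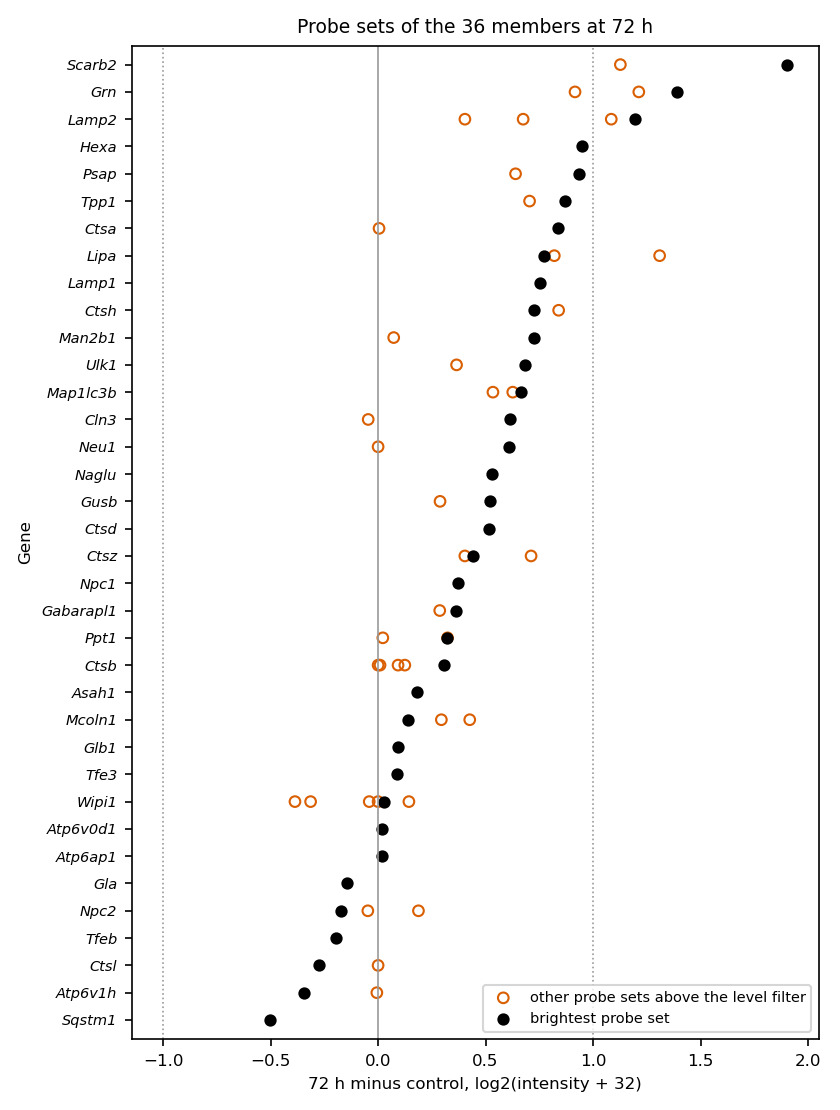
Difference at 72 h from the control array (log2(intensity + 32)) of each probe set of the 36 genes, with filled points for the brightest and open circles for other probe sets above the level filter. The dotted lines mark a 2-fold difference, which the brightest probe sets of Scarb2, Grn and Lamp2 pass.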

How the data were processed

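RNA from 4 tumours was hybridised to Affymetrix mouse arrays, 1 per condition. Per the labels' protocols, skin was trimmed away, about 50 mg of each tumour was snap frozen, total RNA came from a Trizol extraction, and 10 ug of it gave the biotinylated cRNA. The deposited table holds 1 linear intensity per probe set (45037 in all). MAS5 and RMA are both listed, per the submitters' processing notes, and which of them made these values is unknown here.

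The platform annotation gave 1 symbol for 34945 probe sets, which were used, several for 932 and none for 9160. Per gene, the probe set with the highest mean was taken, and log2(intensity + 32) was computed with no further normalization. No p-value was computed, since each condition had 1 array, whose number, 4, limits the precision. The arrays were grouped by the treatment in the labels.

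The members and lists were chosen with earlier results of these data known. All members are named; of 118 other pathway genes, of which 105 were kept, those 2-fold different, or otherwise the 2 highest and 2 lowest per list at 72 h. Alternatives were other pseudocounts, normalizations, level filters and probe set choices. The steps were run on simulated data with the same shift planted in every probe set of the members, which checks the arithmetic only. Python 3.11.15, pandas 2.3.3, NumPy 2.4.6 and matplotlib 3.10.9 were used.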

Additional observations from a re-analysis of the deposited data

How the results depend on the processing

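The 160 medians, distances and counts recomputed under 8 other settings and 2 chosen after seeing the data moved by less than 0.1 (counts: within 1.5 times) in 137 cases, and the cause of the other 23 was not tested. Some of these values are themselves smaller than 0.1, so they could vanish or turn without being counted as moved. The distance of enzymes from autophagy genes at 48 h was so counted, though it went from 0.0641 to -0.0103 with the mean over probe sets. Other values could not move at all. All 36 members passed the level filter, so leaving it out cannot change their medians and counts. Median centring cannot change a distance between group medians. The count of 137 in 160 thus overstates how stable the values were. With a pseudocount 4 times as large, which shrinks differences, the medians at 72 h were 0.34 for all members, 0.39 for enzymes and 0.32 for other lysosomal enzymes, the members' median from 24 to 72 h was 0.29, and the enzymes lay 0.0547 above the autophagy genes at 72 h. With no pseudocount the other lysosomal enzymes were at 0.53. With the mean over probe sets the same values were 0.35, 0.40, 0.32 and 0.27, and other proton pump subunits were at 0.10. With the second brightest probe set, which only 23 members have, they were 0.29, 0.29, -0.0098 and 0.24, other membrane and sorting proteins were at 0.0856, and the enzymes lay at -0.33 from the autophagy genes at 48 h and at -0.0378 at 72 h. Without _x_at and _s_at probe sets, which leaves 35 members, this distance was 0.22 at 24 h and -0.0666 at 48 h. Under quantile normalization 5 members were 2-fold higher, Hexa and Psap being added. The regulators of mTORC1 and TFE factors were at 0.0504 with no level filter and at 0.0635 with one at the 60th percentile. Of 345 single values at 72 h 4 had another sign, those of Wipi1 under 3 probe set choices (-0.10, -0.04 and -0.04) and of Cln3 with the second brightest probe set (-0.05). Another pseudocount or level filter cannot change the sign of a single value. Only the values under other normalizations and probe set choices could turn, so the share of 345 overstates how stable the directions were. No paired analysis was possible because each group has 1 array. Depth has no meaning for these intensities, and the dimmest member, Gla, lay near the array medians.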
